A study of Mus musculus with 12 samples.

Results

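The 12 brain libraries were divided by the level of Ttr, the messenger RNA for transthyretin: 6 libraries with more than 100 FPKM, called Ttr-rich here, and 6 with 100 FPKM or less, called Ttr-poor. FPKM is the number of sequenced fragments a gene received for its length and for the size of the library. The Ttr value itself chose the libraries, so levels on the 2 sides are given as a description and no test was made between them. Each library came from the brain of 1 adult C57BL/6 mouse, killed on day 7. The PBS arm (4 mice) received phosphate-buffered saline, the LPS arm (4 mice) received 7 daily abdominal injections of lipopolysaccharide, a component of the bacterial outer membrane, at 0.5 mg/kg, and the LPS+DMA arm (4 mice) received the same LPS together with N,N-dimethylacetamide, a small organic solvent, at a dose not given in the sources used here. Each arm had 2 females and 2 males. No genotype or transgene is named for any arm. The Ttr-rich libraries were PBS female 1, all 4 LPS libraries and LPS+DMA female 1. The Ttr-poor libraries were the other 3 of PBS and the other 3 of LPS+DMA. The Ttr-rich side thus held 4 females and 2 males, the Ttr-poor side 2 females and 4 males, and LPS treatment and a high Ttr level cannot be told apart within the LPS arm.

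The choroid plexus is a vascular fold that hangs in the brain ventricles. Its epithelium makes most of the cerebrospinal fluid, moves ions, water, folate and bicarbonate between blood and fluid, and closes the blood-fluid barrier with tight junctions. Within the brain, transthyretin, the carrier of thyroid hormone and of retinol-binding protein, is made chiefly by this epithelium, and its messenger RNA is among the most abundant there. A piece of brain that holds more or less of the plexus therefore carries more or less of a set of epithelial genes that brain tissue proper expresses little. In bulk tissue, fewer cells of a type and less RNA per cell cannot be told apart.

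Ttr stood at 327 FPKM in PBS female 1, against 5.19, 4.89 and 0.576 in PBS female 2, male 1 and male 2. In the LPS arm it was 1765 in female 1, 1244 in female 2, 1139 in male 1 and 181 in male 2. In the LPS+DMA arm it was 416 in female 1, 18.7 in female 2, 2.26 in male 1 and 1.91 in male 2. The sides were set apart by a wide empty range: LPS male 2 (181 FPKM) was just inside the threshold and LPS+DMA female 2 (18.7 FPKM) just outside it. The median was 778 FPKM in the Ttr-rich and 3.58 FPKM in the Ttr-poor libraries, a ratio of 217. Even the lowest library, PBS male 2, held 22 reads of Ttr, above the 3 reads taken as the limit of detection, and LPS female 1 held 70975.

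**Figure D1:**
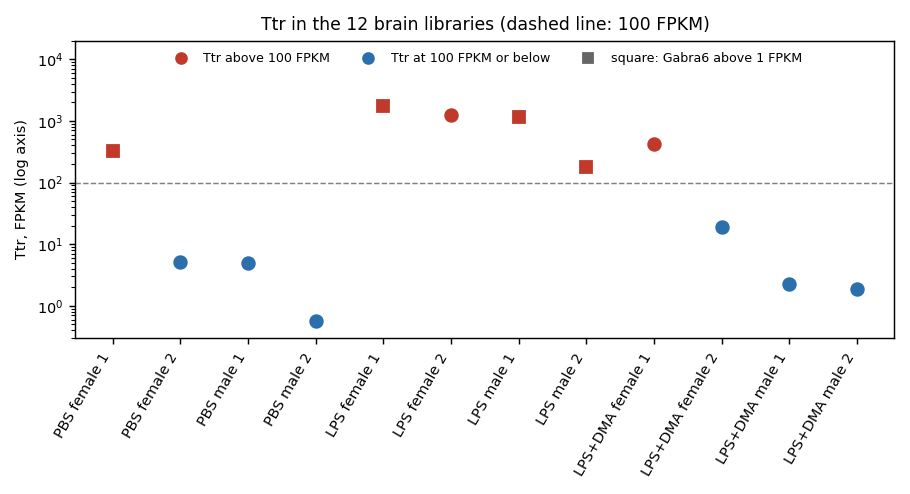
Ttr level (FPKM, log axis) in each of the 12 libraries, in the order of the arms. Red points lie above the dashed line at 100 FPKM and blue points below it, and squares mark libraries with Gabra6 above 1 FPKM. All 4 LPS libraries and 1 library of each other arm are red, and all 4 squares are among them.

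The libraries held 27.5 to 41.4 M reads as recovered from the deposited values, with 28.6 to 41.4 M on the Ttr-rich and 27.5 to 35.8 M on the Ttr-poor side. Ribosomal RNA genes took 0.0389% of reads in LPS female 2 and up to 9.79% elsewhere (LPS+DMA female 2). The tissue is labelled whole brain, yet Gabra6, a receptor subunit of cerebellar granule cells, was above 1 FPKM in only 4 libraries: 74.6 in PBS female 1, 114 in LPS female 1, 15.6 in LPS male 1 and 90.5 in LPS male 2. It was 0.170 FPKM in LPS+DMA male 2, and no read of it was found in the other 7. All 4 libraries with the cerebellar signal were Ttr-rich. LPS female 2 and LPS+DMA female 1 were the Ttr-rich libraries without it, and they serve below as a second look at each count.

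The bases before the start of 4 choroid plexus genes are shown, since these genes are described below as a group whose levels ran together with Ttr. They are the listed genes with the widest separation between the sides among those with an entry in the RefSeq promoter table (build GRCm38.p6, while the deposited coordinates are on GRCm39). Each sequence is the 250 bases before the annotated start, 5′ to 3′ along the gene, on the plus strand: Ecrg4 at chr1:43730352-43730601, Kcne2 at chr16:92292139-92292388 (the first of 2 starts in the table), Slc4a5 at chr6:83237125-83237374 and Cldn2 at chrX:139800558-139800807.
Ecrg4: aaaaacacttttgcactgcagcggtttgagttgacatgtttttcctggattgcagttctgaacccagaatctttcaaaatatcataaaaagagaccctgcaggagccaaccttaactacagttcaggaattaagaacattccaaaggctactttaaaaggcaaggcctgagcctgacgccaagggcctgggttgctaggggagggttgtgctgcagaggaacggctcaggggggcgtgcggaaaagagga
Kcne2: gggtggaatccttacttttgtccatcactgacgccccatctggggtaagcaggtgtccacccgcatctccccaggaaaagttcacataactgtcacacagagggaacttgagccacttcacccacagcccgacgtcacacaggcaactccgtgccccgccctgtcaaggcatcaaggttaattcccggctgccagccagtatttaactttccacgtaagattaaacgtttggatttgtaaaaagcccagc
Slc4a5: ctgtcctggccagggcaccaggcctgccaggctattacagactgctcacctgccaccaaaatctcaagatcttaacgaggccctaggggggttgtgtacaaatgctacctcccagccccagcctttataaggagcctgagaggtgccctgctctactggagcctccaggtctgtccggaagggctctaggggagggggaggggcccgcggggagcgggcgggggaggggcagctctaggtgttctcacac
Cldn2: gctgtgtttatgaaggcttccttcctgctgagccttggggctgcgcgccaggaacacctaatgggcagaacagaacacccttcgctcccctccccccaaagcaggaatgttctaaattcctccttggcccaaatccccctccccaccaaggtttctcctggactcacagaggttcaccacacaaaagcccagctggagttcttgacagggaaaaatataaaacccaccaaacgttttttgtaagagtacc
The letters TAATCC, the core recognised by Otx2, a homeodomain factor of the choroid plexus lineage, were searched for on both strands, and a match would stand in capitals. None of the 4 windows holds them, nor does any of the 8 genes with an entry among the 10 described below as without overlap. Of the 46 listed choroid plexus genes in the deposited table, 38 have a promoter entry, and 4 hold the letters in at least 1 entry: Abca4, Ace, Car14 and Otx2 itself. Over all 32851 windows of the same length in the table, 6.25% hold them. A missing match says only that these letters are not in this window.

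A list of 47 choroid plexus genes, Ttr not among them, was used to describe the epithelium: secreted proteins, transporters and channels, receptors with junction proteins and keratins, and transcription factors. Of these, 46 were in the table and 44 passed the filter (at least 0.5 FPKM in at least 2 libraries). Gmnc and Msx2 did not pass it. For 11 of the 44 no Ttr-poor library reached the filter value, so these entered through the Ttr-rich side. In 10 of the 44 the lowest Ttr-rich library lay above the highest Ttr-poor one, which was the case for 0.296% of the 19571 genes that passed the filter (58 genes, Ttr included). For 7 of these 10 no Ttr-poor library reached the filter value either, so they passed the filter through the Ttr-rich side alone. Such genes had to be higher in at least 2 Ttr-rich libraries than in any Ttr-poor one, though not in all Ttr-rich libraries. None of the 44 lay entirely lower, as 0.235% of all genes did (46 genes), and 34 overlapped. The mean was higher on the Ttr-rich side for 42 of the 44, and the median difference of mean log2(FPKM + 1) was 0.59, against -0.012 over all genes. Leaving out any 1 library gave 10 to 14 choroid plexus genes without overlap, and the 2 Ttr-rich libraries without cerebellar signal alone lay above all Ttr-poor libraries in 18 of the 44, with 2.51% of all genes higher and 2.86% lower on the same measure. Where only genes with at least 1 FPKM in at least 6 libraries were kept, 20 of the listed genes remained and 3 of these were without overlap. The share of all genes at that setting is not given here, so this count has no yardstick.

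**Figure D2:**
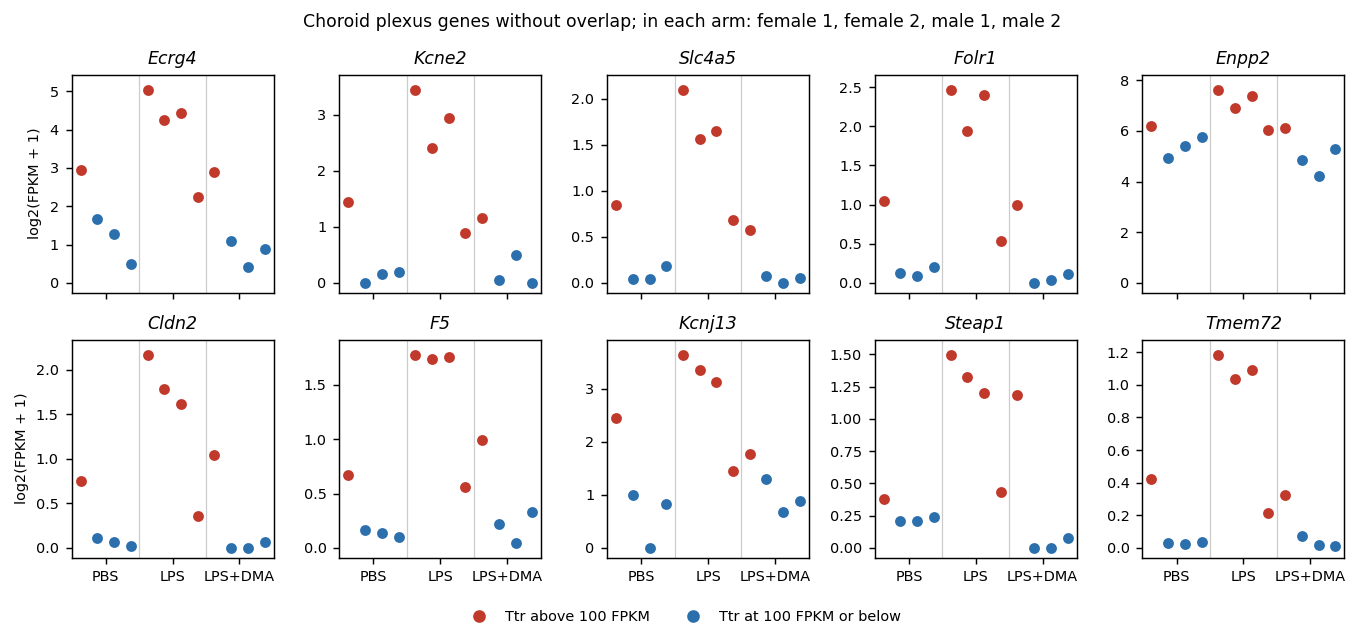
Level of the 10 choroid plexus genes without overlap, as log2(FPKM + 1), in each library, grouped by arm. Red points are Ttr-rich and blue points Ttr-poor libraries. In every panel LPS female 1 is the highest of the 12, and PBS female 1 and LPS+DMA female 1 are the highest of their own arms.

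Among secreted proteins, 3 of 11 were without overlap, and all 11 had the higher mean on the Ttr-rich side. Ecrg4 (chr1:43769762-43781738, GRCm39), which encodes the secreted peptide precursor augurin, had the widest separation of the list. Its level was 6.71 FPKM in PBS female 1 against 2.16, 1.42 and 0.413 in the other PBS libraries, 31.7, 18.1, 20.7 and 3.74 in LPS female 1, female 2, male 1 and male 2, and 6.39 in LPS+DMA female 1 against 1.13, 0.338 and 0.852 in the rest of that arm. The Ttr-rich median was 12.5 times the Ttr-poor median, and the lowest Ttr-rich library stood 0.58 log2 units above the highest Ttr-poor one.

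Enpp2 (chr15:54702297-54816288, GRCm39), which encodes autotaxin, the enzyme that makes lysophosphatidic acid, was the most abundant of the group. It ranged from 63.7 to 195 FPKM with a median of 95.1 on the Ttr-rich side, and from 17.8 to 53.5 with a median of 33.7 on the Ttr-poor side. The ratio of medians, 2.82, was the smallest of the 10, because Ttr-poor libraries also carried Enpp2. Enpp2 is known to be expressed by oligodendrocytes as well. The myelin genes, described further on, were higher in many of the same libraries, and the part of oligodendrocytes in the Enpp2 level was not tested. F5 (chr1:163979407-164047846, GRCm39), coagulation factor V, ranged from 0.478 to 2.42 FPKM with a median of 1.67 against 0.0288 to 0.259 with a median of 0.110, a ratio of 15.1. LPS female 1, female 2 and male 1 lay close together for F5 at 2.42, 2.34 and 2.37, and LPS male 2 at 0.478 was the lowest Ttr-rich library.

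The other secreted proteins overlapped. Kl, the ageing-related hormone klotho, had Ttr-rich values of 0.953 to 5.93 FPKM (median 3.31) and Ttr-poor values of 0.253 to 1.51 (median 0.327). The overlap came from LPS+DMA female 2 (1.51) and LPS+DMA male 2 (1.11), both above LPS male 2 (0.953). Sostdc1, a secreted antagonist of bone morphogenetic protein and Wnt signals, ranged from 0.789 to 5.94 against 0.206 to 0.976, and there only PBS male 1 (0.852) and PBS male 2 (0.976) exceeded LPS male 2. Igfbp2, which binds insulin-like growth factors, and Ace, which makes angiotensin II, had ratios of medians of 1.78 and 1.88 with wide overlap.

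Transporters and channels gave 6 of 21 genes without overlap. Kcne2 (chr16:92089277-92095017, GRCm39), a potassium channel subunit, ranged from 0.853 to 9.90 FPKM on the Ttr-rich side and from 0 to 0.415 with a median of 0.0809 on the other, a ratio of 37.1. Kcnj13 (chr1:87314085-87322451, GRCm39), the inward rectifier Kir7.1 of the apical membrane, ranged from 1.73 to 11.4 (median 6.11) against 0 to 1.46 (median 0.815). In the PBS arm it was 4.48 in female 1 and 1.00, 0 and 0.782 in the others. Both genes were highest in LPS female 1, and in PBS and LPS+DMA both were highest in female 1.

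Slc4a5 (chr6:83196810-83281927, GRCm39), a sodium bicarbonate cotransporter, had a Ttr-rich median of 1.38 FPKM (0.489 to 3.28) and a Ttr-poor median of 0.0339 (0 to 0.139), a ratio of 40.6. Folr1 (chr7:101507538-101519995, GRCm39), the folate receptor that carries folate into the cerebrospinal fluid, had 1.95 (0.445 to 4.52) against 0.0708 (0 to 0.149), a ratio of 27.6. Both were almost confined to the Ttr-rich libraries: the highest Ttr-poor library held 26 reads of Slc4a5 and 11 of Folr1, against at least 97 and 40 in each Ttr-rich library. Tmem72 (chr6:116656024-116693874, GRCm39), a membrane protein, was at 0.159 to 1.27 against 0.00895 to 0.0508. Steap1 (chr5:5786317-5799326, GRCm39), of a family of metal reductases, was at 0.301 to 1.82 against 0 to 0.180.

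Other transport genes overlapped although they were higher on average. Aqp1, the water channel of the apical membrane, had a Ttr-rich median of 2.53 FPKM (0.797 to 4.60) and a Ttr-poor median of 0.366 (0.146 to 2.05). PBS female 2, a Ttr-poor library, had more Aqp1 (2.05) than PBS female 1 (0.911). Clic6, a chloride channel protein, had a Ttr-rich median of 5.48 and a Ttr-poor median of 0.979, and the high Ttr-poor values were in LPS+DMA female 2 (5.98) and PBS male 1 (3.67). Over the 44 genes, the highest Ttr-poor library was PBS male 2 for 12, LPS+DMA female 2 for 8, PBS female 2 and PBS male 1 for 7 each, LPS+DMA male 1 for 6 and LPS+DMA male 2 for 4, so no single Ttr-poor library made the overlaps.

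Of receptors, junction proteins and keratins, 1 of 8 was without overlap. Cldn2 (chrX:138701577-138712135, GRCm39), a claudin that forms cation-permeable tight junctions, was at 0.277 to 3.49 FPKM (median 1.56) in Ttr-rich and 0 to 0.0815 (median 0.0325) in Ttr-poor libraries. No Ttr-poor library held more than 10 reads of it. Krt18, an epithelial keratin, was at 0.107 to 3.20 against 0 to 0.389. Htr2c, the serotonin receptor that both neurons and choroid plexus express, was at 3.10 to 13.5 against 4.89 to 11.1, with a difference of mean log2(FPKM + 1) of 0.02. Transcription factors were low and all 4 tested overlapped. Otx2, for example, was at 0.805 to 3.65 (median 1.94) against 0.122 to 1.78 (median 0.618), with PBS male 2 at 1.78, level with PBS female 1 at 1.77.

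The order of the libraries was much the same in the 10 genes without overlap, which were chosen for their separation, and less so over the whole list. The share of all genes with each order was not counted, so the counts describe the listed genes only. LPS female 1, LPS female 2 and LPS male 1 were the 3 highest libraries in 10 of 10, and in 28 of the 44 listed genes. LPS male 2, with the lowest Ttr of the Ttr-rich libraries, was the lowest of the 6 in 8 of 10, and in 22 of 44. PBS female 1, which received no LPS, was above LPS male 2 in 9 of 10 and in 28 of 44, as was LPS+DMA female 1 (9 of 10 and 28 of 44). Libraries of a single arm thus differed among themselves in these genes as they did in Ttr: F5, for instance, was 1.90 ± 0.950 FPKM in LPS, 0.221 ± 0.246 in PBS and 0.361 ± 0.429 in LPS+DMA (SD, n = 4 each).

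The levels of the choroid plexus genes were also expressed per 1000 FPKM of Ttr within the Ttr-rich libraries. The 10 genes without overlap were chosen by their separation with Ttr, so their values here are a description. Over the 6 Ttr-rich libraries Ttr itself spanned 9.73 times from lowest to highest, and the 10 genes spanned 3.06 to 12.6 times with a median of 7.34. Expressed per 1000 FPKM of Ttr, they spanned 1.41 to 3.67 times with a median of 1.96. The 34 overlapping genes did not narrow in this way: their median span was 4.65 times per Ttr and 4.32 times in FPKM, and 19 of the 34 spanned more relative to Ttr than in FPKM. Over all 44 the median span was 3.62 times per Ttr and 5.08 times in FPKM, and Car14, a membrane carbonic anhydrase, had the widest span of the 44 relative to Ttr, from 4.23 to 63.4 per 1000 FPKM of Ttr. Of the 10, Ecrg4 had the smallest span, at 20.5 per 1000 FPKM of Ttr in PBS female 1, 14.6, 18.2 and 20.6 in LPS female 2, male 1 and male 2 (LPS female 1 lay just under male 1), and 15.4 in LPS+DMA female 1 (coefficient of variation 14.1%). The highest and lowest of these values came from the same arm, LPS. Folr1 ran from 2.28 to 3.77 and Cldn2 from 1.52 to 2.54. Enpp2 had the widest span of the 10, from 95.6 in LPS female 2 to 351 in LPS male 2, and Steap1 had a coefficient of variation of 53.0% against 52.2% for Enpp2. Steap1 was highest, at 3.06, in LPS+DMA female 1 and lowest, at 0.921, in PBS female 1. With the Ttr-poor median of each gene subtracted first, a variant chosen after the values were seen, the median span of the 10 was 1.98 times (1.35 to 4.70), with Steap1 at 4.70 and Enpp2 at 2.41. A shared denominator makes such ratios depend on Ttr's own value, and 6 libraries limit what they can show.

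**Figure D3:**
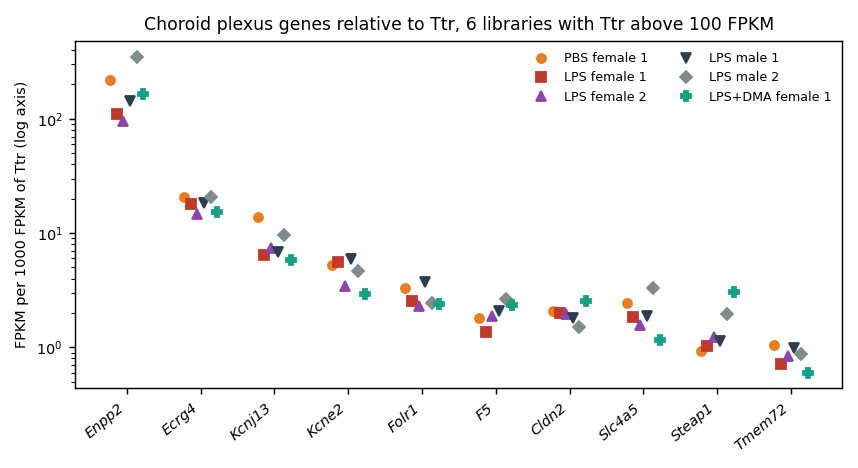
FPKM of the 10 choroid plexus genes per 1000 FPKM of Ttr (log axis) in the 6 Ttr-rich libraries, with 1 marker for each library. Ecrg4 lies between 14.6 and 20.6 in all 6, and Enpp2 between 95.6 and 351.

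Within an arm the treatment was the same for all mice, so PBS female 1 and LPS+DMA female 1 were each set against the 3 Ttr-poor libraries of their arm. Of the 44 choroid plexus genes, 14 were highest both in PBS female 1 within PBS and in LPS+DMA female 1 within its arm, as were 4.76% of all genes. None of the 44 was lowest in both, as were 4.50% of all genes. Only 1 library stands on the Ttr-rich side of each arm, so these counts have no replicate. PBS female 1 was also the only PBS library with cerebellar signal, and both Ttr-rich libraries were female. The part of region and sex in these counts was not tested. With a margin of at least 1 log2 unit in both arms, 3 genes remained higher (0.0153% of all genes): Ttr, Ecrg4 and Gm17622. Gm17622, a predicted gene named here after its values were seen, had 1.02 FPKM in PBS female 1 and 1.30 in LPS+DMA female 1 but 0 in LPS female 1, LPS female 2 and LPS male 2, so it did not follow Ttr in the LPS arm. The 2 genes lower by the margin (0.0102%) were the microRNA genes Mir149 and Mir3070a, also named after their values were seen. Mir149 is very short (chr1:92778100-92778165, GRCm39), so its FPKM rests on few reads. Without PBS male 2, LPS+DMA female 2, LPS+DMA male 1 or LPS+DMA male 2 the higher count was 5 each time, and the lower count was 4 without PBS female 2 and 6 without LPS+DMA female 2.

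Beyond the list, 47 further genes were without overlap on the higher side, Ttr set aside. Of the 10 widest separations after Ttr, 7 belonged to listed choroid plexus genes, and of the 20 widest, 10 did. The widest was 2900040C04Rik (chr14:76488897-76489767, GRCm39), a long non-coding RNA named here after its values were seen. It was at 0.952 FPKM in PBS female 1, 5.65, 9.71, 5.89 and 1.00 in LPS female 1, female 2, male 1 and male 2 and 2.30 in LPS+DMA female 1, and at 0 to 0.236 in the Ttr-poor libraries. Prr32, a proline-rich protein, was at 0.601 to 2.84 (median 1.47) against 0 to 0.192, with 4 of the 6 Ttr-poor libraries at 0. Mfrp, a frizzled-related membrane protein known from the retinal pigment epithelium, was at 0.554 to 2.64 (median 1.63) against 0 to 0.373 (median 0.0328). As in the choroid plexus genes, LPS female 2 (2.64), LPS female 1 (2.62) and LPS male 1 (2.06) were the 3 highest. No Ttr-poor library reached the filter value for 2900040C04Rik, Prr32 or Mfrp, as for 7 of the 10 listed genes without overlap. Such genes passed the filter through the Ttr-rich side and had to be higher in at least 2 Ttr-rich libraries. The ranking by separation is thus a description.

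Most of the remaining genes differed by little. Only 23 of the 58 had a separation of at least 0.1 log2 units and 10 of at least 0.2. Gbp2, an interferon-induced guanylate-binding protein, was at 2.09 to 4.19 FPKM against 1.20 to 1.77, a ratio of medians of 1.69. Hmg20b, a chromatin protein, was at 4.29 to 5.57 against 3.31 to 3.77, and Mettl7a1, a methyltransferase-like protein, at 13.3 to 19.1 against 3.02 to 12.1. Their ratios of medians, 1.23 for Hmg20b and 1.49 for Mettl7a1, were far below those of Kcne2, Slc4a5 or Mfrp.

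On the lower side no listed choroid plexus gene was found, and 29 of the 46 genes were protein-coding. Zfp512b, a zinc finger protein, had the widest separation among coding genes, at 3.85 to 6.36 FPKM (median 5.79) in Ttr-rich and 7.29 to 22.3 (median 8.22) in Ttr-poor libraries. LPS+DMA male 1 gave the value of 22.3, and the next highest Ttr-poor value was 9.66. Dchs1, a large protocadherin, was at 1.02 to 1.39 against 1.64 to 2.55. Lingo2, a neuronal leucine-rich repeat protein, was at 1.23 to 2.51 against 2.80 to 3.62, and Mov10, an RNA helicase, at 0.458 to 1.03 against 1.18 to 2.87. Usp11, a deubiquitinase, and Ocrl, an inositol phosphatase, had ratios of medians of 0.759 and 0.833. Steeper steps on the lower side belonged to non-coding genes and pseudogenes, such as the microRNA gene Mir149 with a median of 0 against 2.89 FPKM. Mir149 is very short, and these values rest on few reads.

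The counts of 58 and 46 depended on the libraries and the scaling. On values rescaled to the same sum in each library they were 65 higher and 23 lower. The higher count was 222 without LPS+DMA female 1, 140 without PBS male 2, 115 without LPS female 2, 108 without LPS+DMA male 1, 103 without PBS female 2, 95 without PBS female 1 and 92 without PBS male 1. The lower count was 151 without LPS+DMA female 1, 109 without LPS female 2, 92 without PBS male 2, 89 without PBS female 2, 82 without LPS+DMA female 2, 81 without LPS male 1, 79 without PBS female 1, 77 without LPS+DMA male 1, 71 without PBS male 1 and 70 without LPS+DMA male 2. Fewer libraries leave fewer chances to overlap, so such counts can only grow.

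Genes of other regions and cells also differed between the sides, but none of the other 24 lists had a member without overlap. The 15 cerebellar genes had a median difference of 1.76 log2 units, all 15 with the higher mean on the Ttr-rich side. Their summed level was 93.0 to 1288 FPKM in Ttr-rich and 50.5 to 142 in Ttr-poor libraries, with LPS female 2 (114) and LPS+DMA female 1 (93.0) inside the Ttr-poor range. Genes of hindbrain and spinal cord, among them the glycine transporter Slc6a5, had a median difference of 0.70 and were higher in all 15 tested. Cortical and hippocampal genes had a median of -0.89 and 12 of 16 were lower. Camk2a, a kinase of forebrain excitatory neurons, was at 350 FPKM in LPS+DMA female 1 and 291 in LPS female 2, within or above the Ttr-poor range (174 to 311), but at 138 in PBS female 1, 50.8 in LPS female 1, 9.45 in LPS male 1 and 10.6 in LPS male 2. The libraries low in Camk2a were those with Gabra6. Without those 4, the Camk2a difference had the opposite sign (0.34 against -1.92). The part of this regional difference in any gene's separation was not tested. The 2 Ttr-rich libraries without cerebellar signal gave the 18 choroid plexus genes counted above.

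**Figure D4:**
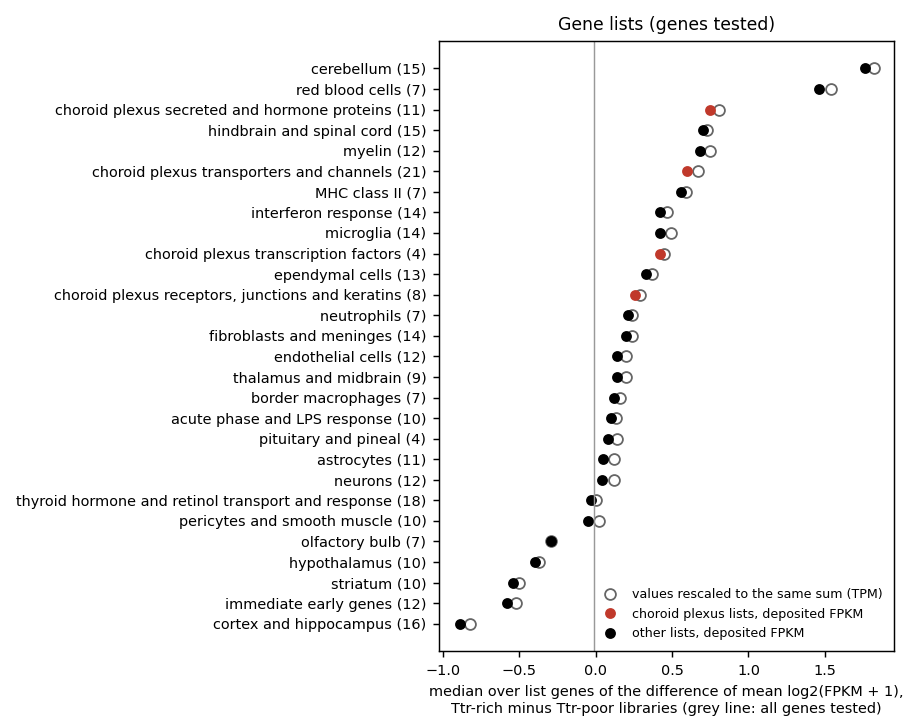
Median difference of mean log2(FPKM + 1), Ttr-rich minus Ttr-poor, for each gene list, with the number of genes tested. Filled points use the deposited FPKM and open points values rescaled to the same sum. Cerebellar genes (1.76) and red blood cell genes (1.46) lie above the choroid plexus lists, and cortical and hippocampal genes (-0.89) lie lowest.

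Red blood cell genes had a median difference of 1.46, with 6 of 7 higher. Their summed level was 148 to 968 FPKM against 90.6 to 361, and the beta-globin gene Hbb-bs was highest in LPS male 1 (549) and LPS female 1 (353). All 12 myelin genes had the higher mean (median 0.68), with sums of 1039 to 2277 against 531 to 1698. The ependymal list, the ciliated cells that line the ventricles beside the plexus, had a median of 0.33 with 13 of 13 higher. Foxj1, their ciliary master factor, was at 2.05 to 7.46 against 1.48 to 4.54, and PBS male 1, a Ttr-poor library, had the highest summed ependymal level of all (37.7 FPKM against 6.23 to 36.6). Fibroblast and meningeal genes had a median of 0.20 with 10 of 14 higher, sums of 41.9 to 91.3 against 23.9 to 71.1. Dcn, the collagen-binding proteoglycan decorin, was at 1.44 to 9.12 against 1.24 to 7.94. Neither list separated the sides, and their part in the choroid plexus result was not tested.

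Several inflammatory genes were high in all 4 LPS libraries. No LPS library was Ttr-poor, so these genes could not be seen under LPS at a low Ttr level. Lyz2, the lysozyme of macrophages and microglia, was at 35.4, 32.4, 38.9 and 33.3 FPKM in the LPS libraries, against 6.57, 8.01, 9.11 and 10.3 in PBS and 6.01, 9.29, 7.05 and 4.56 in LPS+DMA. LPS male 2, with 181 FPKM of Ttr, had as much Lyz2 as LPS female 1 with 1765, and the Ttr-rich PBS female 1 and LPS+DMA female 1 had the lowest and the second lowest value of their arms. Saa3, an acute phase protein, was at 2.42, 3.17, 2.18 and 1.61 in LPS, at 0 in all 4 PBS libraries and at 0, 0.0279, 0.750 and 0.0295 in LPS+DMA. Gfap, the intermediate filament of reactive astrocytes, was at 93.5, 79.0, 97.5 and 96.3 in LPS, and LPS+DMA female 1 had the lowest value of all 12 (20.5). The microglial list (median 0.42, 13 of 14 higher on the Ttr-rich side) had 8 of 14 genes with all 4 LPS libraries above the other 8, and the choroid plexus list had 6 of 44, against 1.43% of all genes. None of either list had all 4 LPS libraries below the other 8, as 0.848% of all genes did. Without the LPS libraries the differences of Lyz2 and Saa3 changed sign, to -0.28 and -0.15. Genes of class II antigen presentation (median 0.56) and of the interferon response (median 0.42, 14 of 14 higher) overlapped in all members.

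**Figure D5:**
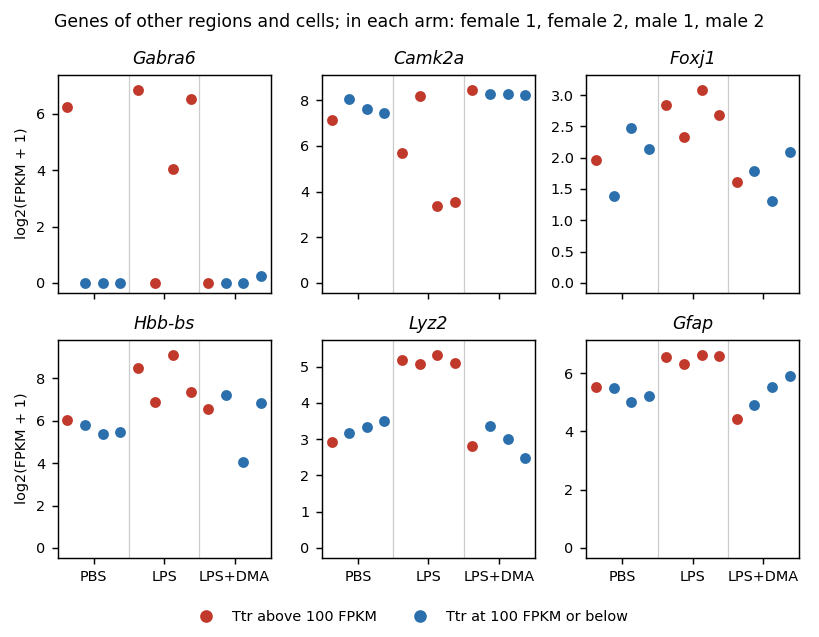
Level of 6 genes of other regions and cells, as log2(FPKM + 1), in each library grouped by arm, with Ttr-rich libraries in red and Ttr-poor libraries in blue. Gabra6 is high in 4 of the 6 red libraries, and Camk2a is lowest in 3 of these. Lyz2 and Gfap are high in the 4 LPS libraries only.

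Genes that handle what transthyretin carries had no common direction. Of 18 tested genes of thyroid hormone and retinol transport and response, 8 had the higher and 10 the lower mean on the Ttr-rich side, with a median difference of -0.03 and none without overlap. Rescaled to the same sum, the median was 0.00. Aldh1a1, a retinaldehyde dehydrogenase, was at 8.77 to 59.7 FPKM against 6.52 to 33.5. Dio2, the deiodinase that activates thyroid hormone, was at 4.85 to 15.4 against 9.44 to 14.9, and Crym, a thyroid hormone-binding protein, at 0.166 to 23.2 against 5.01 to 27.8. Crym was lowest in LPS male 1 and LPS male 2, where Camk2a was lowest too.

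The study's own comparison, whether DMA lessens neuroinflammation after LPS, was tested with limma over all 12 libraries with sex as a term, with Benjamini-Hochberg adjustment over 19571 genes. All LPS libraries were Ttr-rich and 1 of 4 in each other arm was, so the same libraries carry the treatment and the Ttr level. Brain region was uneven too: most LPS libraries and PBS female 1 had the cerebellar signal, and no LPS+DMA library did. Camk2a was at 9.45 to 50.8 FPKM in those LPS libraries, 291 in the remaining LPS library and 297 to 350 in LPS+DMA. Region and treatment thus overlap in LPS+DMA against LPS, and the part of region in the calls below was not tested. In LPS+DMA against LPS, 21 of the 44 choroid plexus genes fell and none rose, where 9.67% of all genes passed, 3.88% lower and 5.79% higher. By role these were 8 of 11 secreted proteins, 12 of 21 transporters and channels, 1 of 8 receptors and junction proteins and 0 of 4 transcription factors. The median change was -0.78 log2 units, against 0.01 over all genes. In LPS against PBS none of the 44 passed in either direction, where 0.0102% of all genes did, although 42 were positive (median 0.71) and 31 had an unadjusted p under 0.05. In LPS+DMA against PBS none passed (median -0.03), where 0.0102% of all genes did.

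Ecrg4 fell by 2.67 log2 units in LPS+DMA against LPS (SE 0.50, limma adjusted p = 0.0203). Slc4a5 fell by 1.32 (SE 0.25, limma adjusted p = 0.0203), Kcnj13 by 1.73 (SE 0.38, limma adjusted p = 0.0250) and Enpp2 by 1.85 (SE 0.41, limma adjusted p = 0.0249). Steap1 (-0.80, limma adjusted p = 0.0649) and Kl (-1.08, limma adjusted p = 0.0527) missed the threshold. Values were higher in 3 of 4 LPS libraries than in any LPS+DMA library for Ecrg4, with LPS male 2 (3.74) below LPS+DMA female 1 (6.39). With the Ttr level (rich or poor) as a further term, none of the 44 passed. Their median change was then -0.60 with 42 of 44 negative, against 41 negative without the term, and Ecrg4's change was -1.67 (SE 0.59, limma adjusted p = 0.523). In that fit the Ttr term is estimated from PBS and LPS+DMA alone, with 1 Ttr-rich library in each, and 1 of all genes passed, Lyz2 (-2.50, SE 0.25, limma adjusted p = 0.0219, against 0.00015 to 0.0130 with 1 library left out and no such term).

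These calls depended on single libraries. The number of choroid plexus genes called was 21 with all libraries. It was 0 without LPS female 1 or without LPS male 1, 3 without LPS male 2, 6 without LPS+DMA female 2, and 10 without LPS+DMA male 1 or without LPS+DMA male 2. With 1 library left out, the adjusted p of Ecrg4 ran from 0.0075 to 0.0824 in limma. Ecrg4 had an adjusted p of 0.0784, 0.0824 and 0.0523 in limma without LPS female 1, LPS male 1 and LPS male 2. Over all genes, 1892 passed in LPS+DMA against LPS (1133 higher, 759 lower), but 7 without LPS male 1, 11 without LPS female 1, 22 without LPS male 2, 3465 without LPS female 2, 1052 without PBS male 2, 1071 without LPS+DMA female 2, 1119 without LPS+DMA male 2, 1166 without PBS male 1 and 1228 without LPS+DMA female 1. Rescaled to the same sum, where the median of all genes shifted to -0.113, 588 were higher and 2284 lower, and 24 choroid plexus genes passed, all lower. Without LPS female 2, 6 choroid plexus genes passed in LPS against PBS, all higher, among 672 genes in all (187 higher, 485 lower). LPS female 2 was low in ribosomal RNA and was also the only LPS library without cerebellar signal. Which of these traits bears on the count was not tested.

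Lyz2 passed in both LPS comparisons. It rose by 1.93 log2 units in LPS against PBS (SE 0.18, limma adjusted p = 0.00673) and fell by 2.25 in LPS+DMA against LPS (SE 0.18, limma adjusted p = 0.00103). In the first it no longer passed without LPS female 1 (0.0575), LPS male 1 (0.0603) or PBS female 2 (0.0542), all adjusted p from limma. Saa3, the other gene that passed in LPS against PBS (1.72, SE 0.20, limma adjusted p = 0.0250), no longer passed when any library but LPS female 2, LPS male 2 or LPS+DMA male 1 was left out.

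Only the Ttr-poor libraries allowed arms to be compared on the same side of the threshold without LPS-only libraries and with replicates, 3 of LPS+DMA against 3 of PBS. Ttr still ran from 0.576 (PBS male 2) to 18.7 FPKM (LPS+DMA female 2) among them. No gene passed there in limma (0% of 19571), and 1244 had an unadjusted p under 0.05. Of the 44 choroid plexus genes, 23 were positive and 21 negative, with a median of 0.01, and 1 had an unadjusted p under 0.05. Ecrg4 differed by -0.34 (SE 0.27, limma adjusted p = 0.803) and Kcnj13 by 0.34 (SE 0.26, limma adjusted p = 0.797). A p that misses the threshold does not show that the arms were alike.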

How the data were processed

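Polyadenylated RNA from the brains of 12 mice was sequenced, 1 library a mouse. The authors deposited 1 table of FPKM values for 56748 genes. Per the submitters' processing notes, the build is GRCm39 and the tools, given with no role or order, are STAR, GATK, edgeR 4.0.16, DESeq2 1.42.0, featureCounts 2.0.6, HISAT2 2.2.1 and fastp. The labels' protocols describe both a stranded and an unstranded preparation, so genes that overlap on opposite strands are uncertain, as are near-identical copies such as Lyz2 and Lyz1.

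FPKM times gene length was a whole multiple of 1 read, within 0.1 reads, for 100% of values up to 1000 reads. This gave the depth, and a voom alternative on the recovered reads was run. Genes with at least 0.5 FPKM in at least 2 libraries were analysed as log2(FPKM + 1), which understates the change of low genes. Libraries were described by the gap between the lowest Ttr-rich and the highest Ttr-poor value, without a test. Arms were compared with limma 3.58.1 in R 4.3.3 (trend and robust moderation, sex as a term, adjusted p under 0.05), tested on simulated data with 200 changed genes.

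The members and gene lists were chosen with earlier results of these data known. Named genes were the coding genes with the widest gaps (15 higher, 10 lower), up to 3 a list by size of difference, all listed choroid plexus genes and a fixed panel. The text gives part of them, and names outside this rule are marked. Replicate numbers were not taken as pairs in the main fit. Alternatives covered the filter, pseudocount, scaling, threshold, terms of the fit and each library left out. One result for a single gene is not reported here.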

Additional observations from a re-analysis of the deposited data

Results flagged for a closer look

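For 45 genes whose levels are given above, Ttr apart, each arm of 4 libraries was searched for a library far from the other 3 on the log2(FPKM + 1) scale. Of 134 such groups 26 had one. Chance gives about 1 in 20 only for genes not chosen by their values. Many of these genes were chosen for their separation by Ttr, and PBS and LPS+DMA each hold 1 Ttr-rich library. That library was thus bound to stand apart for many of them, and the rate is no yardstick here. PBS female 1 was the one library in 12 of the 26. Among choroid plexus genes it stood above the rest of PBS at 0.588 FPKM for F5 (others 0.0752 to 0.124), 1.72 for Kcne2 (0 to 0.141), 1.07 for Folr1 (0.0580 to 0.149), 0.343 for Tmem72 (0.0186 to 0.0253), 0.678 for Cldn2 (0.0187 to 0.0815) and 1.78 for Kl (0.253 to 0.334). Beyond that list it stood above them at 0.605 for Mfrp (0.0125 to 0.0369), 0.952 for 2900040C04Rik (0.135 to 0.236), 4.29 for Hmg20b (3.66 to 3.76), 1.02 for Gm17622 and 74.6 for Gabra6 (no read of either in the others). It lay below them at 0 for Mir149 (2.42 to 3.29, which in so short a gene are few reads).

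LPS+DMA female 1 stood above its arm at 0.489 FPKM for Slc4a5 (others 0 to 0.0501), 0.994 for Folr1 (0 to 0.0837), 1.28 for Steap1 (0 to 0.0558), 1.06 for Cldn2 (0 to 0.0462), and 0.791 for Prr32, 2.30 for 2900040C04Rik and 1.30 for Gm17622 (no read of these in the others). In the LPS arm, LPS male 2 lay below the rest at 0.478 for F5 (others 2.34 to 2.42) and 0.159 for Tmem72 (1.05 to 1.27). Several of these genes were chosen for their separation by Ttr, and the same libraries recur, so these groups are not independent of one another.

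The remaining 5 groups had other libraries. Gm17622 was at 2.33 FPKM in LPS male 1, with no read in the other LPS libraries. Gabra6 was at 0.170 FPKM in LPS+DMA male 2, with no read in the other LPS+DMA libraries, and Aldh1a1 was at 23.5 in the same library (others 7.44 to 8.98). LPS+DMA male 1 had the highest Saa3 of its arm, 0.750 FPKM (others 0 to 0.0295). PBS female 2 had the highest Crym of PBS, 18.3 FPKM (others 5.01 to 5.25).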

How the results depend on the processing

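The count of 58 higher genes without overlap was 29 at a Ttr threshold of 200 FPKM, 492 without the cerebellar libraries and 452 without the LPS libraries. The 46 lower were 12, 559 and 434 there, and 23 on rescaled values. Leaving out 1 library gave 66 to 222 and 54 to 151, and fewer libraries always allow more. The 10 choroid plexus genes were 18 without the cerebellar libraries, 3 (of 20 kept, no share of all genes given) at 1 FPKM in 6 libraries, and 10 to 14 with 1 library left out. The within-arm counts of 3 and 2 were 35 and 21 at a pseudocount of 0.1, 34 and 8 at 0.5 log2 units, and 3 to 5 and 2 to 6 with 1 library left out.

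In LPS against PBS (2 genes), 1 passed at a pseudocount of 0.1, without the filter, at 1 FPKM in 6 libraries, with voom and with the replicate block, 0 with the Ttr term, and 4 without the cerebellar libraries, where 1 LPS library is left and is assumed to vary like the others (added after seeing the data). In LPS+DMA against LPS (1892), 83 passed without the filter, 2872 on rescaled values, 2998 with voom, 1 with the Ttr term and 5 without the cerebellar libraries, against 2040 with the replicate block. Its 21 choroid plexus genes (of 44 tested) were 1 of 46 without the filter and 11 of 20 at 1 FPKM in 6 libraries. At the latter setting 14.9% of all genes passed. The 21 were 24 on rescaled values, 22 with voom, 23 with the block and 0 with the Ttr term. Without the cerebellar libraries, with 1 LPS library left, the median change was -0.79 (42 of 44 negative) against -0.78. The residual degrees of freedom were then 4 against 8, and 1 LPS library has no spread of its own. Whether the fall held there cannot be judged from this median. In LPS+DMA against PBS (2), 0 passed without the filter, without the sex term, with voom and without the cerebellar libraries, and 1 with the Ttr term and with the block. With 1 library left out the counts were 0 to 672, 7 to 3465 (choroid plexus 0 to 22) and 0 to 6. In the Ttr-poor libraries 0 passed in all alternatives run. The causes were not tested.

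Signs reversed for Gabra6 (-0.04) and Camk2a (0.34) without the cerebellar libraries and for Lyz2 (-0.28), Saa3 (-0.15) and Foxj1 (-0.08) without the LPS libraries. Same-numbered libraries correlated over 0.1 in 2 of 12 pairs (-0.30 to 0.41), and 2 of 12 libraries were closest to their own number. The main fit used no pairing by number, and whether same-numbered mice shared anything else was not tested. Low genes rest on few reads (Krt18, 6 in LPS male 2), 1 Ttr-rich library stands in each of PBS and LPS+DMA, and which brain regions each sample held is not given.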
